A study of Mus musculus with 6 samples.

Results

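Foxp3 and 8 other genes by which regulatory T cells are recognised or act were followed in Th9 cells with and without the transcription factor IRF1. The set held 9 of the 41388 genes listed, namely Foxp3, Ikzf2, Ikzf4, Lrrc32, Itgb8, Nt5e, Entpd1, Gpr83 and Capg. They were chosen by what is known of regulatory T cells after the normalized counts of this comparison had shown higher Foxp3 in Irf1-/- cells, to see whether the other genes of the regulatory programme were at a higher level in the same cells. The values of the 9 genes in this comparison are therefore given as a description, with no p value.

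Regulatory T cells are CD4+ T cells that restrain immune responses, and FOXP3, a forkhead transcription factor encoded on the X chromosome, is their defining factor. FOXP3 acts together with partner proteins, among them the Ikaros family factors Eos and Helios, and the cells suppress others through surface enzymes that turn ATP into adenosine, through activation of latent TGF-β and through inhibitory cytokines. TGF-β and IL-2 induce Foxp3 in naive CD4+ T cells, whereas TGF-β together with IL-4 drives the Th9 fate, in which cells make IL-9.

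Poly(A) RNA was sequenced from 3 WT and 3 Irf1-/- cultures, and all cells were on the C57BL/6 background and came from mice of 8 to 12 weeks. T cells were taken from spleen and lymph nodes by negative magnetic selection, and the study's methods name them as naive CD4+ T cells. Both genotypes were kept for 2 days in Th9 medium with IL-2, IL-4 and TGF-β, and both received IFN-γ at 5 ng per ml, a cytokine that induces IRF1. The study's general culture methods also name stimulation by plate-bound anti-CD3 and anti-CD28, and an antibody against mouse IFN-γ beside added rat IFN-γ. No culture without IFN-γ or under conditions that favour regulatory T cells belonged to the comparison. Irf1-/- mice lack IRF1 in all their cells, so that the T cells had also developed without it. The study describes the cultures as independent biological samples. The labels do not tie them to separate animals, so that the spread measured is that between these samples.

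The libraries held between 5639788 and 13348230 reads on genes, and replicate 3 of each genotype was the larger one. Irf1 itself had normalized counts of 2968, 2907 and 2660 in WT and 1780, 1729 and 1476 in Irf1-/- libraries. Reads from exons that an Irf1-/- allele keeps were not separated from the rest, so this level alone does not check the genotype. Transcripts of the 6 CD4 T cell markers summed to between 10657 and 11304 normalized counts in WT and between 10157 and 10543 in Irf1-/- libraries, and 1 of them, Cd3e, was called lower by limma. WT replicates 1 and 2 carried Y-linked transcripts (Ddx3y at 848.6 and 938.9) and Xist at 2.5 and 6.01, whereas WT replicate 3 and the 3 Irf1-/- libraries had Xist at 16974 or more and Ddx3y at 4.16 or less. Genotype and sex of the source animals were thus partly aligned. For some genes the value from the 4 libraries with Xist, or from a fit with Xist as a covariate, stands beside the main one. That covariate marks only whether a library carries Y-linked Ddx3y, not the Xist level. Both fits give the same fold changes, since both set WT replicate 3 alone against the Irf1-/- libraries. They are 1 contrast, and why calls were lost in them was not tested. In replicates 1 and 2, and without WT replicate 3, every WT library has Y-linked transcripts and every Irf1-/- library Xist. Those fits cannot separate genotype from sex.

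Sequence before the start sites is shown for Foxp3, which names the programme, and for Entpd1, the member with the largest difference, because interferon signals act through short elements in such stretches. RefSeq windows on GRCm38.p6 of 300 bases, 250 before and 50 after the start, were matched for 6 of the 9 genes and gave 8 windows. Both strands were searched for an interferon-stimulated response element core (AANNGAAA), a gamma-activated site (TTCNNNGAA), a forkhead site (GTAAACA) and an AP-1 site (TGANTCA). The capitals mark the match.
Entpd1, chr19:40659520-40659769, + strand, all 250 bases before one start and within an intron of the longer gene model: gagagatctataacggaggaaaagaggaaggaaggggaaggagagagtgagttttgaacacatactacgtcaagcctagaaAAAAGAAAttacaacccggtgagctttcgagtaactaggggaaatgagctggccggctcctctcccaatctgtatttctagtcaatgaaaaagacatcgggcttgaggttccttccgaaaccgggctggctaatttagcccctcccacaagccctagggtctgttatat
Foxp3, chrX:7579460-7579489, + strand, before the first RefSeq start: aaatttcaaaaTTTCCGTTtaagtctcata
Foxp3, chrX:7580334-7580363, + strand, before the second RefSeq start: gagctctgttTTCCAAGAAcgggcattagt
The Entpd1 match and the first Foxp3 match are the interferon-stimulated core, read on the other strand in Foxp3, and the second Foxp3 match is the gamma-activated site, which reads on both strands. Both Foxp3 stretches also lie in an annotated exon of Flicr, a noncoding RNA gene inside Foxp3. The interferon-stimulated core was in 2 of the 8 windows, a share of 25.0%, and in 23.9% of all 32851 promoter windows. The gamma-activated site was in 1 of the 8 and in 8.30% of all. The forkhead and AP-1 letters were in none of the 8, and in 3.65% and 7.81% of all windows.

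Foxp3 (ENSMUSG00000039521, chromosome X of GRCm38 from 7573644 to 7595245, + strand) was present at 189.7, 171.9 and 183.2 normalized counts in WT cells and at 330.7, 337.0 and 342.5 in Irf1-/- cells. Every Irf1-/- culture was above every WT culture, and the values within a genotype were close together. The means were 182 ± 8.99 (SD, n = 3) and 337 ± 5.91 (SD, n = 3), a ratio of 1.85. On the scale of log2(normalized count + 1), the fold change from WT to Irf1-/- was 0.89 with a standard error of 0.0834. The transcript was read in every library, with 143 to 298 reads in WT and 243 to 536 in Irf1-/- cells. In bulk RNA, a larger share of FOXP3+ cells cannot be told apart from more Foxp3 RNA in each cell.

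The difference of Foxp3 was of the same size in the smaller and the larger libraries, with log2 fold changes of 0.88 in replicates 1 and 2 and 0.90 in replicate 3. WT replicate 3, the WT library with Xist, lay between the other WT libraries, and the fold change was 0.87 when it alone stood for WT. Across all 20 alternatives the value stayed between 0.85 and 0.92. Of the annotated genes that overlap Foxp3, Ppp1r3f on the other strand had at most 56.9 normalized counts and Flicr on the same strand at most 12.1. Whether the counting used strand is not given in the sources used here.

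Genes around Foxp3 were looked at because the locus is X-linked. Among the 3 nearest tested genes on each side, Clcn5, a chloride transporter gene 254 kb before Foxp3, was higher in Irf1-/- cells, with values of 176.0, 173.1 and 163.5 in WT and 271.0, 276.0 and 324.6 in Irf1-/- libraries (log2 fold change 0.76, standard error 0.0985, limma adjusted p = 4.64e-04 after Benjamini-Hochberg correction). The other 5 neighbours, Usp27x, 2010204K13Rik, Syp, Prickle3 and Plp2, did not pass the test, with log2 fold changes from 0.10 to 0.98. Of 363 tested genes on the X chromosome, 45 were called higher and 47 lower, 25.3% in all, and their median log2 fold change was 0.02.

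**Figure D1:**
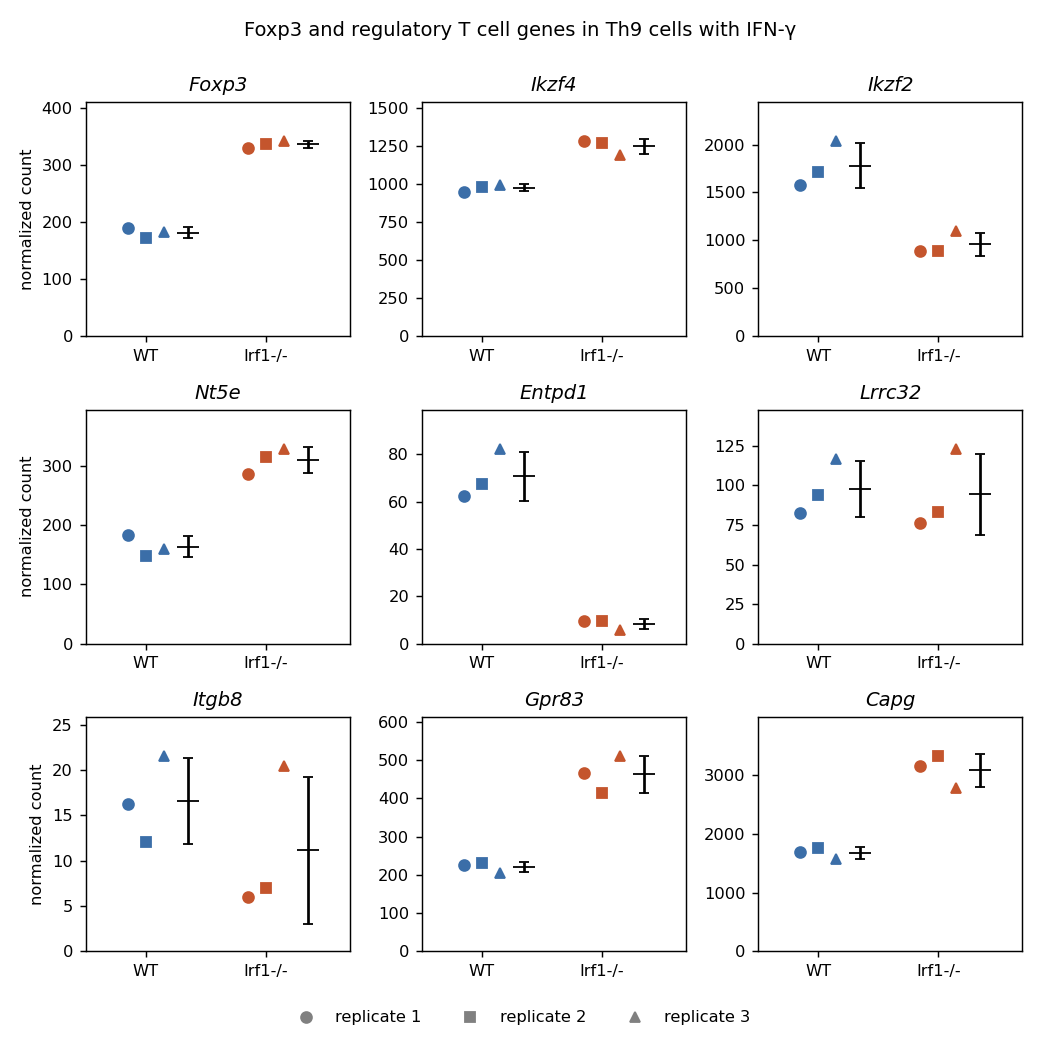
Normalized counts of the 9 genes in the 3 WT and 3 Irf1-/- cultures, each panel with its own linear axis from 0. Symbols are replicates, and the bars beside them give mean and SD. Foxp3, Ikzf4, Nt5e, Gpr83 and Capg were above all WT values in every Irf1-/- culture, Ikzf2 and Entpd1 were below them, and Lrrc32 and Itgb8 overlapped.

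The partners of FOXP3 in the Ikaros family went in opposite directions. Ikzf4 (ENSMUSG00000002578, chromosome 10 from 128630843 to 128645991, - strand) encodes Eos, a zinc-finger factor with which FOXP3 silences genes. It had 948.5, 976.2 and 994.6 normalized counts in WT cells and 1282, 1270 and 1191 in Irf1-/- cells. The genotypes did not overlap, and the means of 973 ± 23.2 and 1248 ± 49.5 (SD, n = 3 each) gave a ratio of 1.28 and a log2 fold change of 0.36 (standard error 0.0567). It was the smallest difference among the members whose genotypes did not overlap. It was 0.41 in replicates 1 and 2, 0.26 in replicate 3 and 0.33 in the libraries with Xist.

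Ikzf2 (ENSMUSG00000025997, chromosome 1 from 69531214 to 69687245, - strand) encodes Helios, which marks many regulatory T cells of thymic origin and helps to keep their phenotype stable. Its normalized counts were 1577, 1718 and 2039 in WT and 885.9, 893.1 and 1095 in Irf1-/- cells. All Irf1-/- values were below the lowest WT value, and in both genotypes replicate 3 was the highest. The mean was 1778 ± 237 in WT and 958 ± 119 in Irf1-/- cells (SD, n = 3 each), a level 1.86-fold lower without IRF1. On the log2 scale this was a difference of -0.89 (standard error 0.104), and of -1.10 in the libraries with Xist.

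Divided by exon length, the levels of both Ikaros factors were close to each other in WT cells and apart in Irf1-/- cells. The length is that of all annotated exons of a gene merged, and which transcripts were in use was not determined. Every comparison between genes per kb rests on this length. Ikzf4 had 162 ± 3.87 and Ikzf2 153 ± 20.4 normalized counts per kb of exon in WT cells (SD, n = 3 each), and their ranges overlapped. In Irf1-/- cells Ikzf4 was at 208 ± 8.26 and Ikzf2 at 82.5 ± 10.2 per kb. The ratio of Ikzf4 to Ikzf2 was 1.16, 1.10 and 0.945 in the WT libraries and 2.80, 2.76 and 2.11 in the Irf1-/- libraries. By this measure Ikzf4 RNA was the more abundant in every culture without IRF1.

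The enzymes that turn extracellular ATP into adenosine also went in opposite directions. Entpd1 (ENSMUSG00000048120, chromosome 19 from 40612366 to 40741602, + strand) encodes CD39, which takes ATP and ADP to AMP. It had 62.4, 67.3 and 82.4 normalized counts in WT cells and 9.55, 9.71 and 5.75 in Irf1-/- cells. The lowest WT value was far above the highest Irf1-/- value, and the means of 70.7 ± 10.4 and 8.34 ± 2.24 (SD, n = 3 each) put the transcript 8.48-fold lower in Irf1-/- cells. This was the largest difference among the 9 genes.

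The Irf1-/- values of Entpd1 rested on 8, 7 and 9 reads, against 50, 56 and 134 reads in WT libraries. The log2 fold change was -2.96 (standard error 0.262) and depended on the constant added before taking logarithms, with -2.14 when 10 was added. In replicates 1 and 2 it was -2.63, and in the deeper replicate 3 it was -3.63. The direction was the same in all 6 leave-one-out fits, with values from -3.08 to -2.74.

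Nt5e (ENSMUSG00000032420, chromosome 9 from 88327197 to 88372092, + strand) encodes CD73, which takes AMP to adenosine, the step after CD39. Its normalized counts were 183.5, 147.9 and 159.8 in WT cells and 285.4, 314.8 and 329.1 in Irf1-/- cells. The genotypes did not overlap, and the means were 164 ± 18.1 and 310 ± 22.3 (SD, n = 3 each), a ratio of 1.89 and a log2 fold change of 0.92 (standard error 0.106). The log2 fold change of Nt5e stood beside 0.89 for Foxp3, while Entpd1 went the other way. Per kb of exon, the ratio of Nt5e to Entpd1 was 1.91, 1.42 and 1.26 in WT and 19.4, 21.0 and 37.1 in Irf1-/- libraries. The ratios in Irf1-/- cells carry the counting error of fewer than 10 Entpd1 reads per library.

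**Figure D2:**
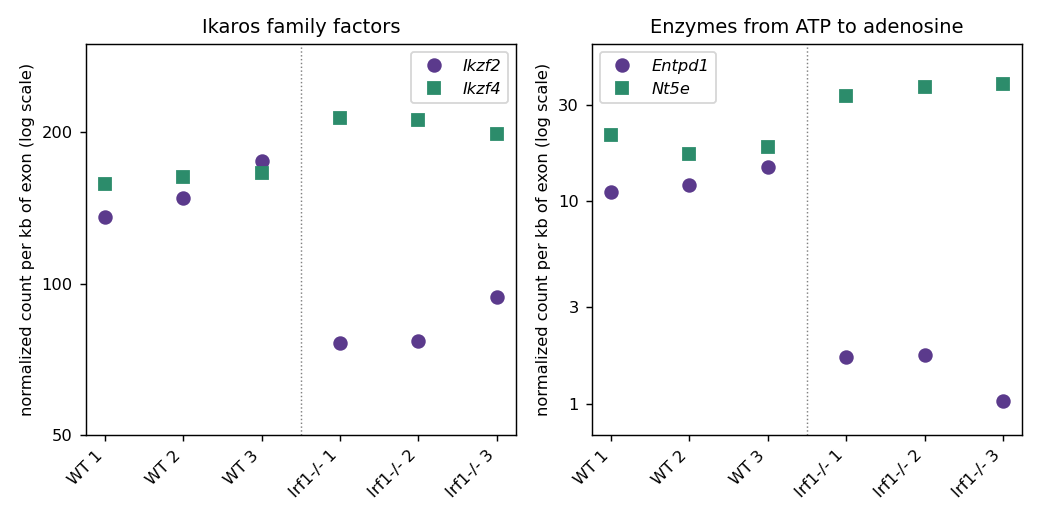
Normalized counts per kb of exon in each of the 6 libraries on a log axis, for the Ikaros factors on the left and for the enzymes on the right. Ikzf4 and Ikzf2 lay close together in WT libraries and apart in Irf1-/- libraries, and Entpd1 was below Nt5e in all libraries, by 19.4 to 37.1 times in Irf1-/- cells.

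The genes for activation of latent TGF-β did not show the pattern of Foxp3. Lrrc32 (ENSMUSG00000090958, chromosome 7 from 98489283 to 98502181, + strand) encodes GARP, which holds latent TGF-β on the surface of activated regulatory T cells. It had 82.4, 93.8 and 116.8 normalized counts in WT and 76.4, 83.2 and 123.3 in Irf1-/- cells. The ranges overlapped almost fully and replicate 3 was the highest in both genotypes. The difference on the log2 scale, -0.07, was smaller than its standard error of 0.196, and its sign changed in 4 of 20 alternatives, with values between -0.34 and 0.08.

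Itgb8 (ENSMUSG00000025321, chromosome 12 from 119158022 to 119238802, - strand) encodes the β8 chain of an integrin that frees active TGF-β. Its normalized counts were 16.2, 12.02 and 21.5 in WT cells and 5.97, 6.93 and 20.5 in Irf1-/- cells. Irf1-/- replicates 1 and 2 were below all WT values, with 5 reads each, but Irf1-/- replicate 3, with 32 reads, was among the WT values. On the log2 scale the difference was -0.70 with a standard error of 0.450, and it was -1.01 in replicates 1 and 2, -0.07 in replicate 3 and -1.09 in the libraries with Xist. Without Irf1-/- replicate 3 it was -1.21.

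Gpr83 and Capg are used as markers of regulatory T cells rather than as parts of a known suppressive step. Gpr83 (ENSMUSG00000031932, chromosome 9 from 14860210 to 14870789, + strand) encodes a G protein-coupled receptor. It had 224.6, 230.8 and 205.9 normalized counts in WT and 465.6, 413.3 and 510.6 in Irf1-/- cells. All Irf1-/- cultures were well above the WT cultures, with means of 220 ± 13.0 and 463 ± 48.7 (SD, n = 3 each), a ratio of 2.10. The log2 fold change of 1.06 (standard error 0.0950) was 0.94 in replicates 1 and 2 and 1.31 in replicate 3.

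Capg (ENSMUSG00000056737, chromosome 6 from 72544391 to 72562983, + strand) encodes a protein that caps actin filaments and is also made by macrophages. Its normalized counts were 1691, 1760 and 1565 in WT cells and 3162, 3323 and 2776 in Irf1-/- cells. The genotypes did not overlap, the means were 1672 ± 98.9 and 3087 ± 281 (SD, n = 3 each), and the log2 fold change was 0.88 (standard error 0.0731). The 7 myeloid markers summed to between 51.2 and 151 normalized counts in WT and between 39.0 and 707 in Irf1-/- libraries. The sum was highest in Irf1-/- replicate 2, where Lyz2 was at 558.9 and Capg at its highest. In Irf1-/- replicate 3 the myeloid sum was the lowest of all libraries, and Capg was the lowest of its genotype, at 2776. Irf1-/- replicate 1 lay between in both, with a sum of 196 and Capg at 3162. In WT, replicate 2 had the highest sum and the highest Capg. Without Irf1-/- replicate 2 the log2 fold change of Capg was 0.83. A myeloid part in the Capg values was not tested.

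Markers of other cells were low beside those of CD4 T cells. The CD8 pair summed to 32.4 to 41.2 normalized counts in WT and 20.3 to 30.7 in Irf1-/- libraries. B cell markers summed to between 18.7 and 37.4, and those of platelets to 21.6 or less except in Irf1-/- replicate 2, at 62.4 with Pf4 at 47.2 and with Ppbp and Gp9 at 0 in all libraries. NK cell markers summed to 33.7 to 54.1 in WT and 9.55 to 24.3 in Irf1-/- libraries, with Ncr1 and Klrb1c at 0 throughout. Eomes, a factor gene that T cells also express, made up most of this sum in the WT libraries. It was at 33.7, 33.7 and 51.0 in WT and 8.36, 5.55 and 20.5 in Irf1-/- libraries and was called lower by limma. The part of these cells in the 9 genes' values was not tested.

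Per kb of exon, the members ranked in WT cells as Capg, Ikzf4, Ikzf2, Gpr83, Foxp3, Lrrc32, Nt5e, Entpd1 and Itgb8. Neighbours with overlapping ranges were Ikzf4 and Ikzf2, Gpr83 (43.3 ± 2.54 normalized counts per kb) and Foxp3 (39.7 ± 1.96), and Lrrc32 (20.8 ± 3.74) and Nt5e (19.0 ± 2.11), each over 3 libraries with SD. In Irf1-/- cells the order was Capg, Ikzf4, Gpr83, Ikzf2, Foxp3, Nt5e, Lrrc32, Entpd1 and Itgb8. Foxp3 was at 73.6 ± 1.29 per kb (SD, n = 3), below all values of Gpr83 (90.9 ± 9.56) and Ikzf2 (82.5 ± 10.2), whose own ranges overlapped. Entpd1 at 1.49 ± 0.402 and Itgb8 at 1.01 ± 0.732 per kb overlapped as well.

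All 9 genes passed the filter on low values, and at an adjusted p below 0.05 in limma 5 of them were called higher and 2 lower, where 23.7% of the 11379 genes tested were called, 11.4% higher and 12.4% lower. In 7 of the 9 the genotypes did not overlap, 5 of them higher and 2 lower, as in 40.5% of all genes tested, 19.7% higher and 20.9% lower. As the genes were chosen with this comparison known, nothing is read from these counts. The median log2 fold change of the 9 genes was 0.36, and that of all genes tested was -0.0037. Of the 8 genes other than Foxp3, then, 4 were higher with Foxp3, 2 were lower and 2 overlapped between the genotypes.

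A wider list of 36 other genes that regulatory T cells carry or use was described in the same fit. Of these, 30 were tested, and 4 were called higher and 5 lower in Irf1-/- cells, 30% of those tested, against 23.7% of all genes. The median log2 fold change was 0.08, with 21 genes above 0 and 9 below. This list and those that follow were chosen with earlier results of these data known, so nothing is read from the shares called. The most widely used surface markers did not pass the test: the log2 fold change was 0.18 (standard error 0.103) for Il2ra, the high-affinity IL-2 receptor chain CD25, 0.07 (standard error 0.166) for the inhibitory receptor gene Ctla4, 0.10 (standard error 0.0546) for Tnfrsf18, which encodes GITR, 0.07 (standard error 0.0526) for Tnfrsf4, which encodes OX40, and 0.04 (standard error 0.105) for Nrp1, the neuropilin of thymic regulatory T cells. Il2ra was called higher in 3 of 19 alternatives, namely with the replicate block, without WT replicate 3 and in replicates 1 and 2, whereas its value was -0.08 in the libraries with Xist. Tnfrsf18 was called with quantile normalization. Itgae, the integrin chain CD103, had values of 29.9, 45.7 and 29.5 in WT and 70.4, 59.6 and 42.8 in Irf1-/- cells, and its log2 fold change of 0.70 had an adjusted p of 0.0579 from limma. Its call changed with the processing, since 4 of 18 alternatives put it below 0.05.

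The genes called higher in this list were Il10, Ecm1, Izumo1r and Socs2. Il10, an inhibitory cytokine gene, had 2.5, 3.61 and 3.07 normalized counts in WT cells, from 2, 3 and 5 reads, and 20.3, 37.4 and 25.6 in Irf1-/- cells. Its log2 fold change of 2.79 (limma, adjusted p = 4.98e-04) was 1.51 when 10 in place of 1 was added before taking logarithms, and at most 3.18, in DESeq2. Izumo1r, which encodes folate receptor 4, was abundant, with 1687, 1752 and 2362 in WT and 2992, 3162 and 4010 in Irf1-/- cells, and rose by 0.81 on the log2 scale (limma, adjusted p = 0.00172). In the libraries with Xist alone the value was 0.51 and was not called. Ecm1, which encodes a matrix protein made by some T helper cells, rose from 91.5 ± 14.4 to 185 ± 26.0 (SD, n = 3 each) (log2 fold change 1.01, adjusted p = 0.00115 in limma). Socs2, a feedback inhibitor of cytokine signals, had a log2 fold change of 0.25 (limma, adjusted p = 0.0424), and 8 of 19 alternatives lost the call. Its value was 0.37 in replicates 1 and 2, 0.0032 in replicate 3 and 0.16 with Xist as a covariate.

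The genes called lower were Il12a, Prdm1, Dusp4, Swap70 and Ccr8. Il12a, which encodes the p35 chain shared by IL-12 and the inhibitory cytokine IL-35, had 445.5, 494.1 and 384.2 normalized counts in WT and 37.0, 36.1 and 28.1 in Irf1-/- cells (log2 fold change -3.67, adjusted p = 9.28e-08 in limma) that no alternative took past the threshold. Ebi3, the other chain of IL-35, named here after its values were seen, had 48.7, 43.3 and 52.9 in WT and 47.8, 52.7 and 88.2 in Irf1-/- cells and did not pass the test. Prdm1, the gene of the repressor Blimp-1, was at 14.7 ± 3.61 in WT and 5.37 ± 1.94 in Irf1-/- cells (SD, n = 3 each) (log2 fold change -1.33, adjusted p = 0.0351 in limma), and 10 of 18 alternatives lost the call. Dusp4, a phosphatase gene of the MAP kinase pathway, Swap70, an actin-binding signal protein gene, and Ccr8, a chemokine receptor gene, had log2 fold changes of -0.34, -0.31 and -0.25. The call of Ccr8 was lost in 9 of 19 alternatives, among them 5 of the 6 that leave out a library, and its value was -0.08 with Xist as a covariate. That of Swap70 was lost in both fits that account for Xist, and that of Dusp4 in the libraries with Xist alone. Il10, Ecm1 and Il12a kept their calls in every alternative that tested them. Il10 was not tested at a mean of at least 50.

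**Figure D3:**
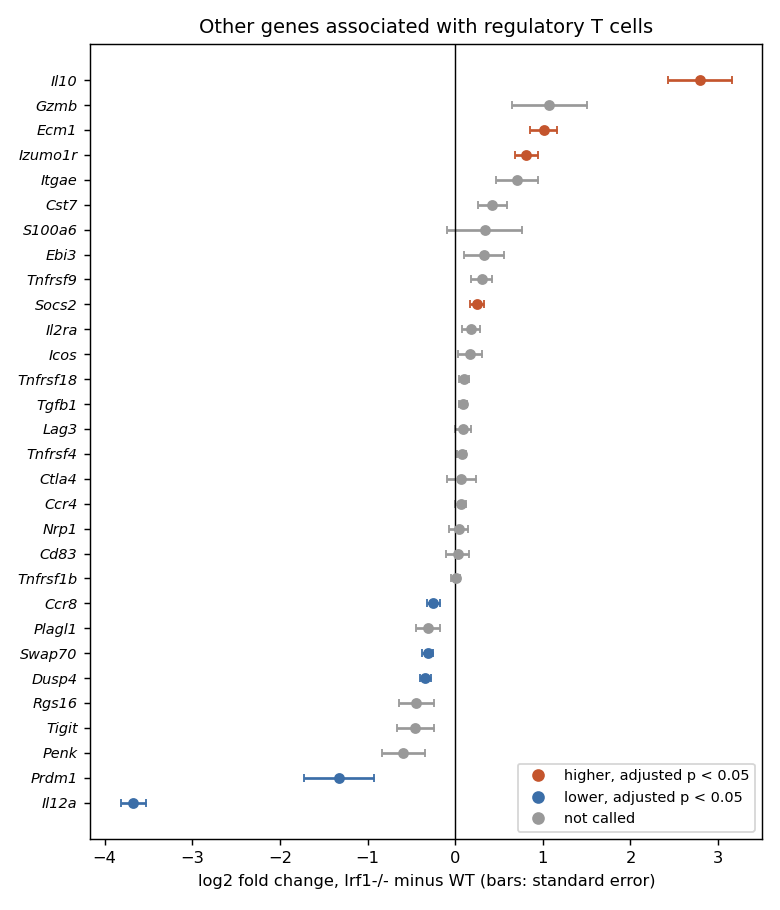
Log2 fold changes from WT to Irf1-/- cells of the 30 tested genes of the wider regulatory T cell list, with bars of 1 standard error from 3 libraries a genotype. Orange and blue mark the 4 genes called higher and the 5 called lower, and the 21 grey genes, which did not pass the test, ran from -0.59 to 1.07.

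Receptors, signal transducers and DNA-binding proteins that induce Foxp3 or bind with FOXP3 were taken as a second list of 28 genes. All were tested, and 4 were called higher and 10 lower, 50% in all, against 23.7% of all genes. Their log2 fold changes had a median of -0.13. As this list too was chosen with earlier results of these data known, nothing is read from the share called. On the side of TGF-β, Smad3, a transducer that binds a Foxp3 enhancer, had 213.4, 185.1 and 269.2 normalized counts in WT and 336.7, 300.9 and 397.5 in Irf1-/- cells (log2 fold change 0.64, adjusted p = 0.00914 in limma). Its call was lost in 3 alternatives, among them both that account for Xist, where the value was 0.35. The receptor genes Tgfbr1 and Tgfbr2 did not pass the test, with log2 fold changes of -0.12 and -0.14. In the IL-2 pathway Il2rb was called higher, by 0.38 on the log2 scale, but lost the call in 8 of 19 alternatives, among them 5 of the 6 that leave out a library, and was at 0.11 with Xist as a covariate. Il2rg was called lower, at -0.32, and lost the call in both fits that account for Xist, at -0.20. Stat5a, which carries the IL-2 signal to the Foxp3 locus, had 5298, 5393 and 5167 in WT and 4576, 4425 and 4649 in Irf1-/- cells (log2 fold change -0.22, adjusted p = 0.00870 in limma).

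The largest decreases of the list were those of Nr4a2, Nr4a3, Rel and Bach2. Nr4a3, an orphan nuclear receptor gene that T cell receptor signals induce and that can drive Foxp3 transcription, had 7683, 7598 and 8351 normalized counts in WT and 4206, 4259 and 4892 in Irf1-/- cells (log2 fold change -0.83, adjusted p = 2.65e-05 in limma). Nr4a2, of the same family, was at 125 ± 28.4 in WT and 68.1 ± 4.67 in Irf1-/- cells (SD, n = 3 each) (log2 fold change -0.85, adjusted p = 0.00486 in limma). Rel, which encodes the NF-κB protein c-Rel and is needed for Foxp3 induction, had 712.6, 837.9 and 805.2 in WT and 483.5, 470.1 and 596.3 in Irf1-/- cells (log2 fold change -0.61, adjusted p = 0.00170 in limma). Bach2, a repressor gene that favours regulatory T cells, had a log2 fold change of -0.47 (limma, adjusted p = 0.00140). Of these genes, Nr4a3 and Rel were called under all 19 alternatives, whereas Nr4a2 lost its call in both fits that account for Xist and Bach2 in the libraries with Xist alone.

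Nfatc2 and Xbp1 were called higher, by 0.31 and 0.25 on the log2 scale, and Il2rg, Foxo3, Cbfb, Smad2, Runx1 and Stat5a lower, by 0.32 or less in size. Of 19 alternatives, 8 lost the calls of Xbp1 and of Runx1, 6 that of Smad2, and 4 those of Nfatc2 and of Stat5a. Foxo3 and Cbfb lost theirs with Xist as a covariate, at -0.25 and -0.23, against -0.29 and -0.27 in the main fit. Without WT replicate 2 none of Xbp1, Runx1, Smad2, Nfatc2 and Stat5a was called, and with Xist as a covariate Xbp1 was at 0.07. Neither Gata3 (log2 fold change 0.06, standard error 0.130), a factor of both regulatory and Th9 cells, nor Irf4 (0.23, standard error 0.0798, adjusted p = 0.0602 from limma) passed the test, although Irf4 did in 5 of 19 alternatives and was at 0.03 with Xist as a covariate. With Xist as a covariate 4 genes of the list were called, in a fit that called 584 higher and 772 lower of the 11379 genes tested. Nothing about the list is read from this count.

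**Figure D4:**
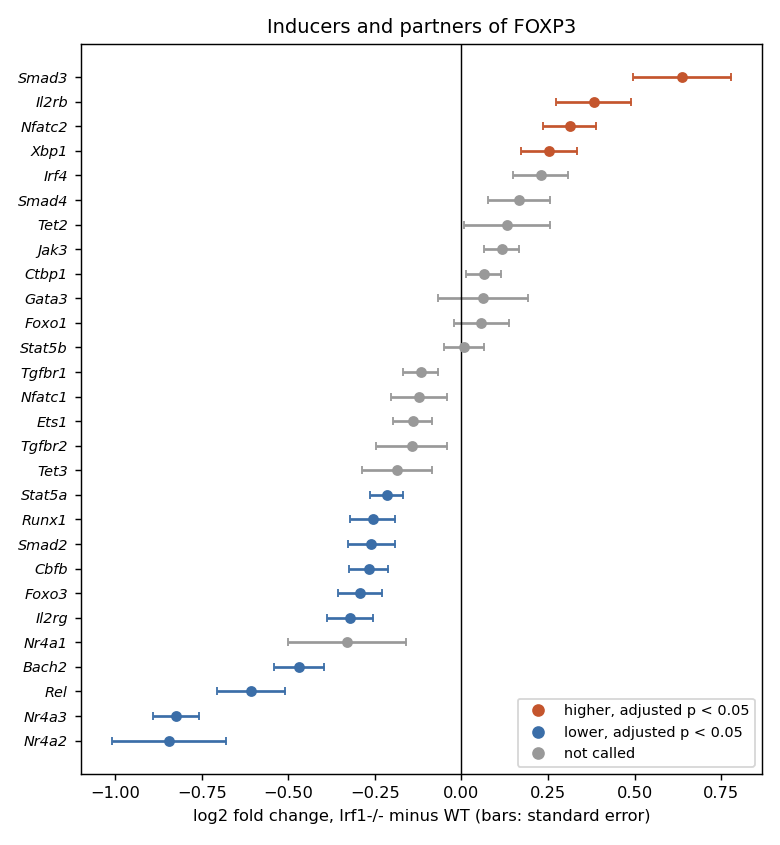
Log2 fold changes from WT to Irf1-/- cells of the 28 genes that induce Foxp3 or bind with FOXP3, with bars of 1 standard error from 3 libraries a genotype. Orange marks the 4 genes called higher, led by Smad3, and blue the 10 called lower, with Nr4a2 and Nr4a3 lowest.

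The last list held 10 genes that regulatory T cells carry at a lower level than other T cells. Of 9 tested, 0 were called higher and 3 lower by limma, 33.3% in all against 23.7% of all genes, with the same counts by edgeR and DESeq2. At an unadjusted p below 0.05, limma and edgeR put 1 gene higher, Themis, and 4 lower. DESeq2 put 1 higher, Igfbp4, and 3 lower. By limma the wider list had 8 higher and 8 lower at that level, and the inducers and partners 6 and 12. The share of all genes at that level is not given here, so nothing is read from these counts. The median log2 fold change was -0.04. Il2, the cytokine gene that FOXP3 represses, had 239.6, 230.8 and 169.7 normalized counts in WT and 68.1, 86.0 and 143.2 in Irf1-/- cells. The genotypes did not overlap, but WT and Irf1-/- replicate 3 were close to each other, and the log2 fold change of -1.15 (limma, adjusted p = 0.00620) was -0.24 in that pair. With Xist as a covariate Il2 was not called, at -0.84. Actn1, an actin crosslinker gene, and Tcf7, which encodes TCF-1, had log2 fold changes of -0.37 (limma, adjusted p = 7.11e-04) and -0.26 (limma, adjusted p = 0.00678). The call of Tcf7 was lost in 3 of 19 alternatives, without a trend and in both fits that account for Xist.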

How the data were processed

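RNA-Seq of 3 WT and 3 Irf1-/- cultures was used. The deposited signal is a normalized count per Ensembl gene, for which the authors aligned reads to GRCm38 with STAR 2.4.0b, counted them with featureCounts and scaled the counts by DESeq2 size factors (version 1.12.3, per the submitters' processing notes). Within each library the values were whole multiples of 1 step, and dividing by it gave whole numbers of reads, within 0.001, for 100% of them. On these reads edgeR 4.0.16 called 1261 genes higher and 1417 lower, and DESeq2 1.42.0 called 942 and 1060. A value of 3 reads corresponded to between 1.84 and 4.16 normalized counts.

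Symbols, coordinates and exon lengths came from the reference annotation of GRCm38 by Ensembl identifier. Differences were estimated with limma 3.58.1 (eBayes with trend) in R 4.3.3, on log2(normalized count + 1) of the 11379 genes whose mean was 10 or more. The Benjamini-Hochberg method was used over all of them, at a threshold of 0.05. Adjusted p values in the text come from this fit. Log2 fold changes come from it too unless another setting is named, and ratios are of normalized counts. Alternatives were edgeR and DESeq2, TMM factors, quantile normalization, adding 0.1 or 10 before the logarithm, and omitting the filter or raising it to 50. Others omitted the trend, used a replicate block, left out each library, or took replicates 1 and 2 or replicate 3 alone. The last used the libraries with Xist alone, or a covariate for the presence of Y-linked Ddx3y, here named Xist as a covariate.

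The members, the lists and the alternatives were chosen with earlier results of these data known. Named were all members, the genes called in each list and a few fixed genes whatever their values, the marker genes, the 3 tested genes nearest to Foxp3 on each side, and the 5 genes most like Foxp3. ChIP-Seq was not analysed here.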

Additional observations from a re-analysis of the deposited data

How the results depend on the processing

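The log2 fold change of Foxp3 moved by less than the spread between replicates in all 20 alternatives, and no called result of the 50 followed changed sign. Of those not called, the sign changed for Ctla4 and Gata3 in 5 alternatives each, for Lrrc32 in 4, Nrp1 in 3 and Il2ra in 2. The median of the 9 genes, 0.36, was 0.88 with a mean of at least 50, where 7 genes have a value, 0.41 with quantile normalization, 0.41 in replicates 1 and 2, 0.26 in replicate 3, and 0.34 to 0.39 with each library left out in turn. Over all genes, 1293 higher and 1406 lower became 584 and 772 with Xist as a covariate, and 392 and 392 in the libraries with Xist alone. Without a trend 928 were higher and 807 lower. Leaving out single libraries gave 799 to 1372 higher and 826 to 1472 lower, with 808 and 829 without WT replicate 1, 799 and 826 without WT replicate 2, and 820 and 895 without Irf1-/- replicate 2. Fewer samples enter these fits; beyond that the cause was not tested.

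The 9 genes called in the wider regulatory T cell list became 15 in replicates 1 and 2, 5 with Xist as a covariate, and 6 to 12 with single libraries left out. The 14 of the inducers and partners became 8 without a trend and 4 with Xist as a covariate. They became 8 to 16 with single libraries left out, the lowest without WT replicate 2. The 3 of the list low in regulatory T cells became 6 in replicates 1 and 2, and 3 to 5 with single libraries left out, the highest without Irf1-/- replicate 3. In replicates 1 and 2 genotype and sex cannot be told apart, and calls over all genes in that fit are not set beside these counts. Nothing about the lists is read from the counts in replicates 1 and 2. The causes were not tested. Replicate 3 alone gives values with no test, and a lone library is assumed to vary like the others.

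The labels give replicate numbers but state no pairing. Same-numbered libraries correlated in their deviations from the group means by 0.092, 0.27 and 0.32, and each correlated best with its own number. Libraries of unlike number correlated by -0.31 to 0.084. Whether same-numbered cultures were handled together was not tested. A replicate block gave 1893 higher and 2116 lower genes, 18 called in the wider list, 18 among inducers and partners and 6 in the list low in regulatory T cells. Depth limits Entpd1, Il10 and Prdm1, whose lower group held few reads per library.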

Other observations

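The 5 tested genes whose pattern over the 6 libraries was most like that of Foxp3, by Pearson's r on the log2(normalized count + 1) scale, were Car8 (0.999), Gipc1 (0.998), Cisd3 (0.997), Ppil2 (0.997) and Rnpep (0.997). The libraries form 2 genotype groups that all these points share, so that the measure mostly reflects the step between the genotypes, and it is given as a description only. Car8, which encodes a protein related to carbonic anhydrases, had 8.74, 7.21 and 7.99 normalized counts in WT and 57.3, 65.2 and 62.6 in Irf1-/- cells (log2 difference 2.81, standard error 0.228). Rnpep, an aminopeptidase gene, had 492.9, 408.7 and 424.1 in WT and 1090, 1089 and 1065 in Irf1-/- cells (log2 difference 1.29, standard error 0.0764). The log2 fold changes were 0.89 for Cisd3, 0.44 for Gipc1 and 0.13 for Ppil2, the last of which was not called by limma.

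Of the Th9 genes, Il9 had 852.4, 938.9 and 1272 normalized counts in WT and 3201, 3283 and 3726 in Irf1-/- cells, so that Foxp3 and Il9 RNA were both higher in every culture without IRF1. In bulk RNA it cannot be told apart whether the same cells carried both transcripts.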
